A study of Mus musculus with 2 samples.

Results

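The genes Gatm, Gamt, Slc6a8, Ckb, Alpl, Atp2a2, Ryr2 and Pm20d1 belong to the futile cycles of creatine and calcium and to the N-acyl amino acid pathway, and they were found by symbol. They are 8 of the 32285 genes in the count matrices, and each symbol stood for exactly 1 gene. Nuclear RNA of mouse mesenteric perivascular fat, the fat around the arteries of the gut, was counted in single nuclei with the 10x Genomics 3' kit, after the tissue was snap-frozen and its nuclei were purified on an iodixanol gradient. All mice were 11 weeks old. The library labelled Prdm16 cKO came from mice with floxed Prdm16 alleles and a Cre driven by the promoter of Adipoq, the adiponectin gene of adipocytes (AdopiQCre+ in the label). The flox control library came from mice with the same floxed alleles and no Cre in the label. Each genotype had 1 library and the labels do not give the number of animals behind it. The series title names thoracic and abdominal fat, whereas the sample labels name mesenteric fat, and the sample labels were followed.

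Adipocytes can release heat without uncoupling their mitochondria when a reaction that spends ATP is run in a circle. In the creatine cycle, creatine is phosphorylated by a creatine kinase and the phosphocreatine is hydrolysed again, and in the calcium cycle, calcium that leaks from the endoplasmic reticulum is pumped back at the cost of ATP. N-acyl amino acids, made by the secreted enzyme Pm20d1, uncouple mitochondria directly. Gatm, the first enzyme of creatine synthesis, is also abundant in the acinar cells of the pancreas, which lies beside mesenteric fat.

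After filtering, 7374 nuclei with 62275986 unique molecular identifiers (UMIs, counted molecules) were left in the library labelled Prdm16 cKO, and 10532 nuclei with 92779065 UMIs in the flox control library. The median depth was 6522 and 7035 UMIs per nucleus. Prdm16 had 22.3 and 16.5 CPM (the depth-scaled level, a gene's UMIs over all UMIs of the class) in adipocyte-like nuclei, so it was not lower in the library labelled cKO, and the floxed exon is not given in the sources used here, so counts near the 3' end do not check the deletion. The libraries shared 28 barcodes, of which 24 were kept in both. Nuclei were clustered and named from marker genes, and the names carry the ending "-like" because a difference from another account may come from these rebuilt names. Adipocyte-like nuclei numbered 2921 and 4348, or 39.6% and 41.3% of each library. They fell into clusters 0, 1, 4, 6 and 8, with clusters 1 and 6 holding most of the cKO-labelled nuclei (32.2% and 29.2%) and clusters 0 and 4 most of the control nuclei (36.8% and 25.6%). All differences compare 2 libraries and have no replicate check. The intervals are at 95% and cover counting error only, so they say nothing of the spread between animals.

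In adipocyte-like nuclei, 1 of the 8 genes was at least 1.5-fold higher in the library labelled Prdm16 cKO, and none was at least 1.5-fold lower. That gene was Gatm, the gene that pancreatic acinar cells also use. Of the 17578 genes with at least 20 UMIs in these nuclei, 7.48% were at least 1.5-fold higher and 5.13% at least 1.5-fold lower. At a log2 ratio of 0.32 or more in size, 3 genes were higher (Gatm, Gamt and Pm20d1) and none lower, beside 18.9% and 11.7% of all genes. At 2-fold, 1 gene was higher and none lower, beside 2.3% and 1.67%. With no minimum of UMIs, 1 gene was at least 1.5-fold higher and none lower, beside 14.6% and 14.3% of 25098 genes. The median log2 ratio of the 8 genes was 0.08, beside 0.04 for all 17578 genes. In the 9 named classes that held 100 nuclei or more on both sides, 14 of the 72 gene and class pairs had an interval that left out 0, with 13 higher and 1 lower. Over all 182534 gene and class pairs with at least 1 UMI, 8.47% were higher and 5.93% lower by the same measure. Of the 42 pairs of the 8 genes with at least 20 UMIs over both libraries, 11 were higher and 1 lower, beside 13% and 9.42% of all 109580 such pairs. Of the 14 pairs, 8 were Gatm. Its interval held 0 only in lymphatic endothelial-like nuclei, where the log2 ratio was 0.42 (-1.21 to 1.96).

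**Figure D1:**
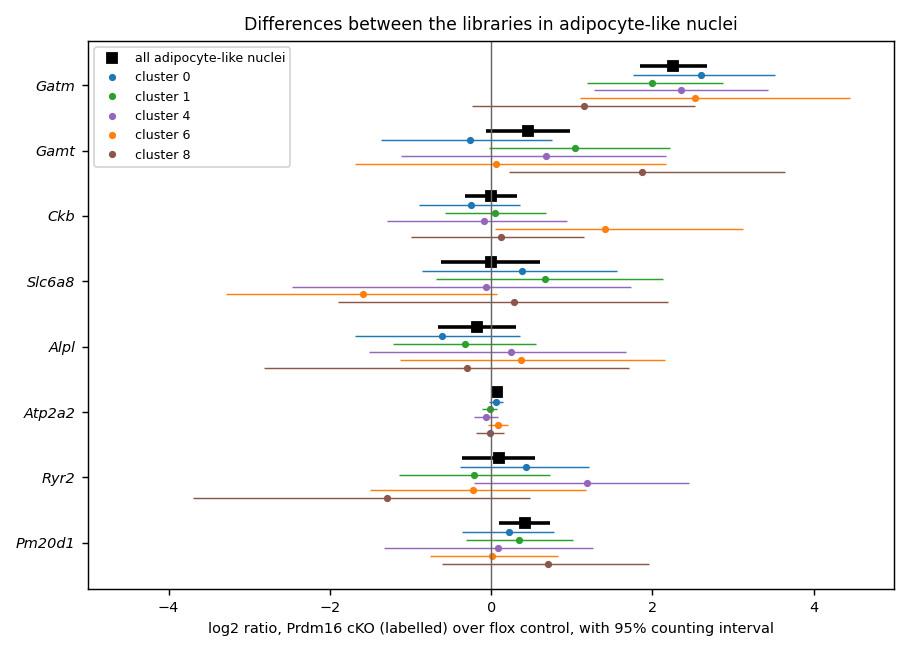
Log2 ratio of each gene in adipocyte-like nuclei, the library labelled Prdm16 cKO over the flox control library, with 95% counting intervals. Black squares are all adipocyte-like nuclei and coloured points are the 5 adipocyte-like clusters: Gatm lies at 2.25 and above 0 in all 5, while Atp2a2 lies between -0.062 and 0.085.

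Gatm (ENSMUSG00000027199, chr2:122594467-122611303 on the minus strand of GRCm38, the assembly behind mm10) encodes the arginine:glycine amidinotransferase that makes guanidinoacetate, the precursor of creatine. In adipocyte-like nuclei it had 205 UMIs, or 5.29 CPM (4.59 to 6.07), in the library labelled Prdm16 cKO, and 64 UMIs, or 1.11 CPM (0.856 to 1.42), in the flox control library. The log2 ratio was 2.25 (1.84 to 2.68), a 4.76-fold difference. The cKO-labelled level was higher in each of the 5 adipocyte-like clusters, with log2 ratios between 1.15 in cluster 8 and 2.60 in cluster 0, and the interval left out 0 in 4 of them. A Gatm UMI was seen in 6.78% of cKO-labelled and 1.40% of control adipocyte-like nuclei, whose median depths were 11881 and 12170 UMIs. In B cell-like nuclei, at median depths of 4353 and 3761 UMIs, the shares were 6.63% and 0.643%, and in T cell-like nuclei, at 3759 and 3732 UMIs, they were 6.90% and 0.26%. The intervals of the 3 shares overlapped within each library, although the lymphocyte-like nuclei were shallower. The adipocyte-like level was the lowest of all classes in the library labelled Prdm16 cKO, and only smooth muscle-like nuclei, with 0 Gatm UMIs, which allows up to 6.08 CPM (3 UMIs), had a lower value in the flox control library.

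Pancreatic acinar-like nuclei held the highest Gatm level of any class in both libraries, although their interval overlapped that of Schwann-like nuclei in the flox control library. They had 639 UMIs, or 467 CPM (432 to 505), in the library labelled Prdm16 cKO and 77 UMIs, or 113 CPM (89.5 to 142), in the flox control library. A Gatm UMI was present in 142 of 186 and in 40 of 85 acinar-like nuclei. The class made up 2.52% of the cKO-labelled and 0.807% of the control nuclei. All 12 acinar markers were detected, led by the elastase gene Cela1, the carboxypeptidase gene Cpb1 and the lipase gene Pnlip. Gatm was thus more abundant within acinar-like nuclei of the library labelled cKO, and that library also held the larger share of such nuclei. The class was below the 100 nuclei asked for in the flox control library, so it entered no count of differences.

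RNA of acinar genes was present in the adipocyte-like nuclei too. The 12 acinar markers summed to 186 CPM in the library labelled Prdm16 cKO and 39.9 CPM in the flox control library, against 19331 and 14368 CPM in acinar-like nuclei. All 12 were detected in the adipocyte-like nuclei of both libraries, with Cela1 at 61.0 and 15.8 CPM, Cpb1 at 50.4 and 9.75 CPM and Pnlip at 21.0 and 3.87 CPM. At least 1 acinar marker UMI was found in 88.2% of the cKO-labelled and 39.3% of the control adipocyte-like nuclei. The marker sum differed between the libraries in the same direction as Gatm.

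Gatm was then set against the acinar markers within each library. Per 1000 acinar marker UMIs, adipocyte-like nuclei had 28.4 Gatm UMIs and acinar-like nuclei 24.2 in the library labelled Prdm16 cKO, a log2 ratio of 0.23 (-0.0011 to 0.46). In the flox control library the values were 27.9 in adipocyte-like and 7.90 in acinar-like nuclei, a log2 ratio of 1.82 (1.32 to 2.32). At the Gatm to marker ratio of the acinar-like nuclei, the acinar RNA in adipocyte-like nuclei would bring 174 of the 205 Gatm UMIs in the library labelled cKO, or 85.1% (72.6 to 100.1%). In the flox control library it would bring 18.1 of the 64, or 28.3% (20.1 to 40.1%). The Gatm left after that subtraction was 0.789 CPM in the library labelled Prdm16 cKO and 0.797 CPM in the flox control library, a log2 ratio of -0.014. The intervals of the expected shares put the remainder between -0.158 and 56.2 UMIs in the library labelled Prdm16 cKO and between 38.3 and 51.1 UMIs in the flox control library. From single acinar markers, the expected Gatm exceeded the count for 6 of 12 markers in the library labelled Prdm16 cKO and for 0 of 12 in the flox control library, so the remainder in the library labelled Prdm16 cKO depended on the marker.

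**Figure D2:**
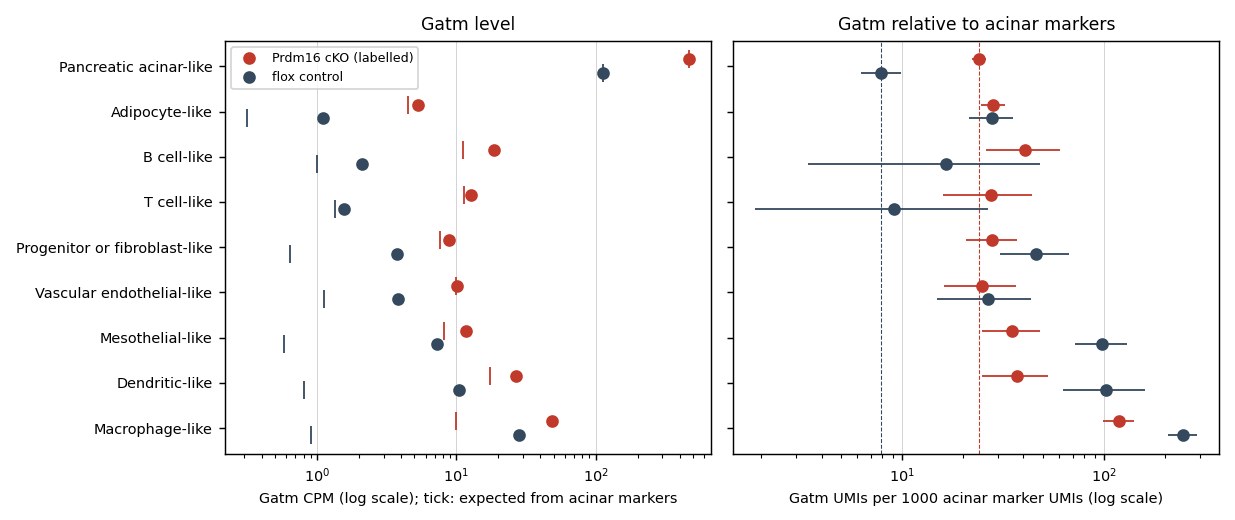
Left, Gatm CPM per class (points) and the level expected from the acinar markers of the class (ticks), on a log scale; right, Gatm UMIs per 1000 acinar marker UMIs with 95% counting intervals, with dashed lines at the acinar-like values of each library. In the library labelled Prdm16 cKO the adipocyte-like point lies at 28.4 per 1000 beside an acinar-like value of 24.2. In the flox control library it lies at 27.9, above the acinar-like value of 7.90.

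Macrophage-like nuclei also held Gatm, so a subtraction with both sources was added after seeing the data. The 12 macrophage markers stood at 2.68% and 2.64% of their macrophage level in adipocyte-like nuclei. Together, acinar and macrophage RNA would bring 214 Gatm UMIs against 205 (178 to 235) counted in the library labelled Prdm16 cKO, and 59.5 against 64 (49.3 to 81.7) in the flox control library. The macrophage part depended on the marker: from single markers its median was 33.7 and 28.6 UMIs and its lowest value 16.6 and 17.5. With single macrophage markers in turn, the expected sum lay inside the counting interval for 8 of 12 markers and above it for 4 in the library labelled Prdm16 cKO. In the flox control library it lay below the interval for 7 markers, inside it for 1 and above it for 4, so how much Gatm the subtraction left there depended on the marker used. Mertk alone gave 659 and 586 UMIs, more than all Gatm counted. It had 8191 and 11778 UMIs in the adipocyte-like nuclei, more than in the macrophage-like nuclei (1639 and 2833). The shares of 2.68% and 2.64% and the sums of 214 and 59.5 include Mertk and were not computed without it. How far those sums reflect macrophage RNA was therefore not settled.

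The adipocyte-like nuclei were also divided by whether they held an acinar marker UMI. In the 346 and 2641 nuclei with none, Gatm stood at 7.57 CPM (4.95 to 11.1; 26 UMIs) in the library labelled Prdm16 cKO and 1.14 CPM (0.806 to 1.56; 38 UMIs) in the flox control library. In those with at least 1 it stood at 5.07 CPM (4.35 to 5.87) and 1.07 CPM (0.702 to 1.57). All acinar marker UMIs of adipocyte-like nuclei numbered 7216 over 2921 cKO-labelled and 2297 over 4348 control nuclei, so a nucleus without one is not shown to lack acinar RNA, and the division does not separate the sources of Gatm.

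Outside fat cells and acinar cells, Gatm had its clearest level in macrophage-like nuclei, with 48.4 CPM (132 UMIs) in the library labelled Prdm16 cKO and 28.2 CPM (141 UMIs) in the flox control library. Per 1000 acinar marker UMIs this was 119 and 247, both far above the acinar-like values, and the log2 ratio of 0.78 (0.43 to 1.13) was 0.50 after the acinar profile was subtracted. Schwann-like nuclei had 78.7 and 88.3 CPM from 9 and 11 UMIs, in 4 of 25 and 6 of 30 nuclei. Their Gatm per 1000 acinar marker UMIs, 145 and 846, also lay above the acinar-like values.

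Intestinal epithelial-like nuclei had 115 CPM from 29 UMIs and 7.06 CPM from 8 UMIs, but 24 of the 29 cKO-labelled UMIs came from 1 nucleus. In B cell-like nuclei Gatm had 24 and 3 UMIs, a log2 ratio of 3.15 (1.43 to 5.52), and the 24 came from 12 nuclei. T cell-like nuclei had 17 and 3 UMIs, a log2 ratio of 3.04 and likewise an interval above 0. The acinar subtraction left 9.74 and 1.57 UMIs in B cell-like and 2.04 and 0.394 UMIs in T cell-like nuclei. In T cell-like nuclei of both libraries and in B cell-like nuclei of the flox control library, the range of the expected share included all Gatm counted. With macrophage RNA subtracted too, 4.55 and -1.52 UMIs were left in B cell-like and -0.16 and -2.38 UMIs in T cell-like nuclei, so no ratio of these remainders is given.

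Gamt (ENSMUSG00000020150, chr10:80258151-80261012, minus strand) encodes guanidinoacetate methyltransferase, which completes creatine synthesis. Adipocyte-like nuclei had 62 UMIs, or 1.60 CPM (1.23 to 2.05), in the library labelled Prdm16 cKO and 67 UMIs, or 1.16 CPM (0.902 to 1.48), in the flox control library. The log2 ratio of 0.46 had an interval that held 0 (-0.06 to 0.98), and single clusters ran from -0.26 to 1.87. Only cluster 8, with 9 and 6 UMIs, had an interval that left out 0. Acinar-like nuclei again had the highest level, 8.78 CPM (12 UMIs) and 11.8 CPM (8 UMIs). Unlike Gatm, it was not higher in the cKO-labelled acinar-like nuclei, and outside the adipocyte-like nuclei no class held more than 13 Gamt UMIs in a library.

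Slc6a8 (ENSMUSG00000019558, chrX:73673150-73682502, plus strand) encodes the creatine transporter of the plasma membrane. Adipocyte-like nuclei had 39 and 58 UMIs, or 1.01 CPM in both libraries, with a log2 ratio of -0.0010 (-0.63 to 0.61). Intestinal epithelial-like nuclei held the highest level, with 51.3 CPM (27.3 to 87.8; 13 UMIs) in the library labelled Prdm16 cKO and 25.6 CPM (17.1 to 36.8; 29 UMIs) in the flox control library. Among the compared classes progenitor or fibroblast-like nuclei led, with 5.18 and 5.41 CPM, and their intervals lay wholly above those of adipocyte-like nuclei. In mesothelial-like cluster 7, marked by Vat1l and Ctnnd2, Slc6a8 had 1 UMI in 303 cKO-labelled nuclei and 16 in 624 control nuclei, a log2 ratio of -2.85 (-8.24 to -0.16). The whole mesothelial class had 5 and 22 UMIs and an interval that held 0.

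Ckb (ENSMUSG00000001270, chr12:111669361-111672338, minus strand) encodes the brain-type creatine kinase, which phosphorylates creatine with ATP and is the creatine kinase of the cycle in thermogenic mouse fat. Adipocyte-like nuclei had 137 and 204 UMIs, or 3.54 CPM in both libraries, and the log2 ratio was -0.0028 (-0.33 to 0.32). Adipocyte-like nuclei had the lowest Ckb of all classes in the library labelled Prdm16 cKO, and only lymphatic endothelial-like nuclei lay below them in the flox control library. In the library labelled Prdm16 cKO their interval overlapped that of the next class, B cell-like nuclei (5 UMIs). The control lymphatic endothelial-like value rested on 3 UMIs (0.519 to 7.35 CPM), and its interval overlapped that of adipocyte-like nuclei. Smooth muscle-like nuclei were highest, with 48.7 CPM (8 UMIs) in the library labelled Prdm16 cKO and 81.1 CPM (40 UMIs) in the flox control library.

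Granulocyte-like nuclei followed with 36.0 and 26.8 CPM of Ckb, and dendritic-like nuclei had 24.9 and 17.2 CPM. The smooth muscle-like level lay above the next class beyond counting error in the flox control library and not in the library labelled Prdm16 cKO. No compared class had a Ckb interval that left out 0, and within the adipocyte-like clusters only cluster 6 did, with 35 and 5 UMIs and a log2 ratio of 1.41 (0.05 to 3.12). Relative to all other nuclei, Ckb in adipocyte-like nuclei was lower by a log2 ratio of -1.48 (-1.79 to -1.17) and -1.57 (-1.82 to -1.32).

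Alpl (ENSMUSG00000028766, chr4:137741733-137796384, minus strand) encodes the tissue-nonspecific alkaline phosphatase, which in mouse thermogenic fat has been placed in mitochondria as a phosphocreatine phosphatase and is otherwise a marker of capillary and arterial endothelium. Adipocyte-like nuclei had 59 UMIs, or 1.52 CPM (1.16 to 1.96), in the library labelled Prdm16 cKO and 99 UMIs, or 1.72 CPM (1.40 to 2.09), in the flox control library, with a log2 ratio of -0.18 (-0.67 to 0.30). Vascular endothelial-like nuclei had 21 UMIs, or 8.52 CPM, in the library labelled Prdm16 cKO and 61 UMIs, or 15.4 CPM, in the flox control library. This was the only pair among the 72 that was lower with an interval that left out 0, at -0.85 (-1.64 to -0.12). The summed adipocyte markers in these nuclei reached 43.3% and 28.6% of the sum in adipocyte-like nuclei, and the log2 ratio was -0.92 after the adipocyte profile was subtracted.

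Vascular endothelial-like nuclei had the highest Alpl level of all classes in the flox control library, and its interval lay above those of the other 8 compared classes except lymphatic endothelial-like nuclei (7 UMIs). In the library labelled Prdm16 cKO granulocyte-like nuclei (4 UMIs, 14.4 CPM) and the unnamed cluster 3 (33 UMIs, 13.4 CPM) were higher and their intervals overlapped it. Cluster 3 had 33 and 11 Alpl UMIs, or 13.4 and 6.45 CPM, a log2 ratio of 1.05 (0.03 to 2.19), opposite in sign to that of the vascular endothelial-like nuclei. Within the endothelium, Alpl was concentrated in cluster 13, led by Rbp7 and Gpihbp1, with 15.7 and 24.4 CPM, and in cluster 24, led by Gja5, with 13.2 and 22.7 CPM. Clusters 20 and 21, the second led by Vwf, had 0 UMIs each in the library labelled Prdm16 cKO, which allows up to 4.84 and 6.51 CPM (3 UMIs), and 7 and 5 UMIs in the flox control library. The cKO-labelled value was lower in all 4 endothelial clusters, and no single cluster had an interval that left out 0. In fibroblast-like cluster 5 Alpl had 10 and 33 UMIs, a log2 ratio of -1.39 (-2.57 to -0.33), while clusters 11 and 16 had 6 and 4 UMIs and 5 and 4 UMIs.

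**Figure D3:**
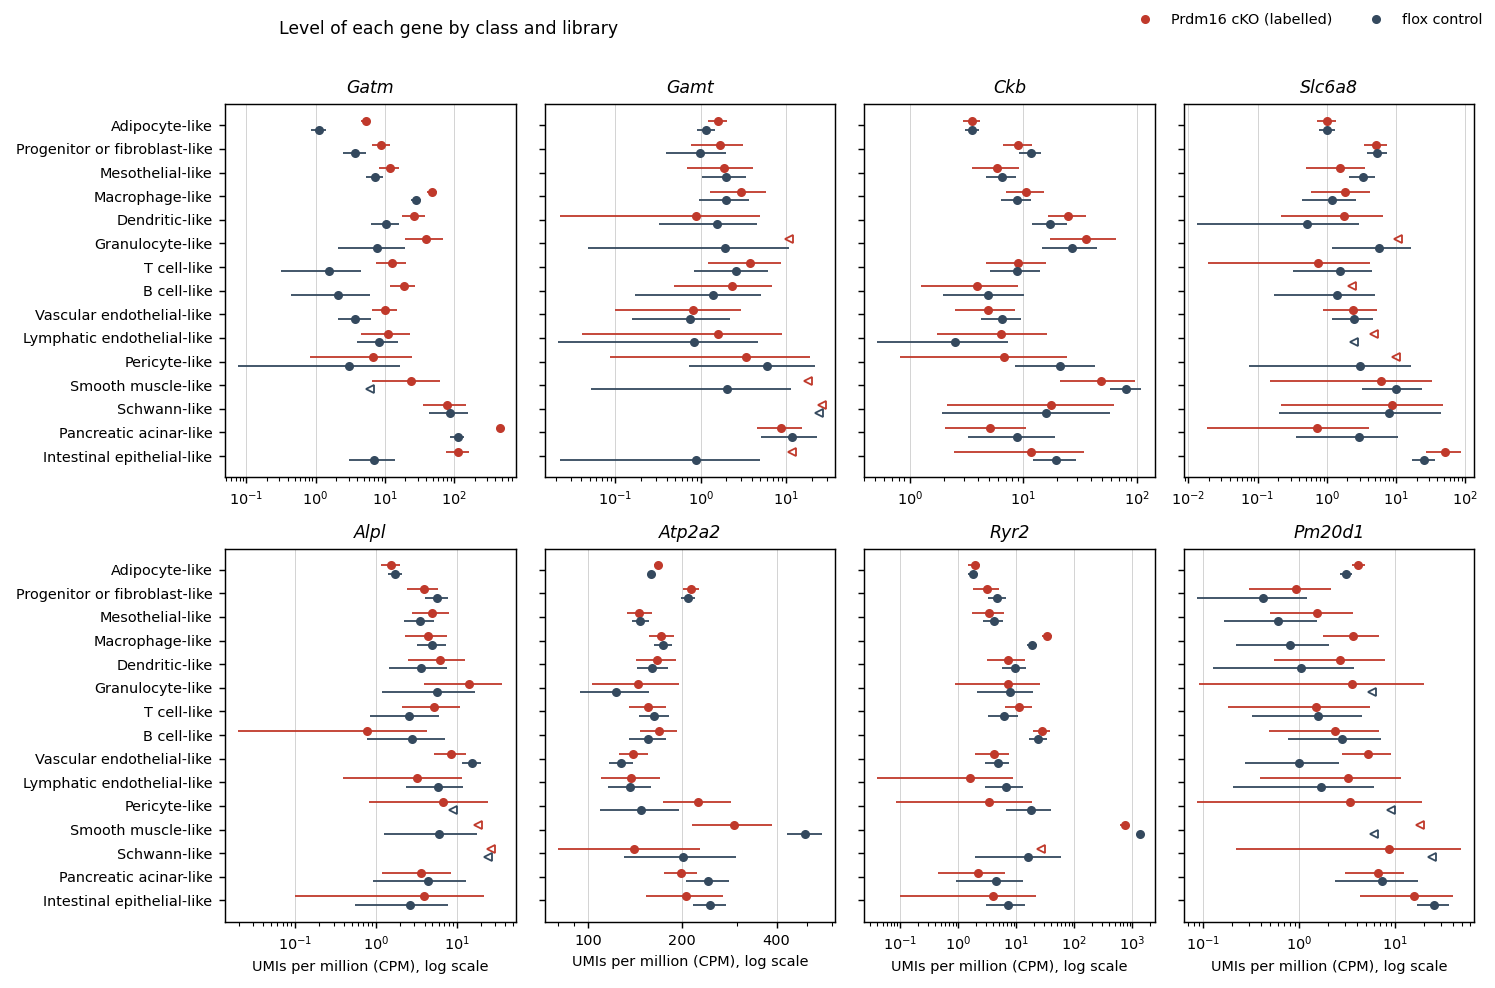
CPM of each gene (log scale) in 15 named classes, for the library labelled Prdm16 cKO (red) and the flox control library (dark blue), with 95% counting intervals; open triangles mark the level of 3 UMIs where none was counted. Gatm is highest in acinar-like nuclei (467 and 113 CPM), Ryr2 and Ckb in smooth muscle-like nuclei, and Atp2a2 is present in every class.

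Atp2a2 (ENSMUSG00000029467, chr5:122453513-122502225, minus strand) encodes SERCA2, the pump that returns calcium to the endoplasmic reticulum and runs the calcium cycle of beige fat. With 10634 and 15289 UMIs over all kept nuclei it was the best measured of the 8 genes. Adipocyte-like nuclei had 6454 UMIs, or 167 CPM (163 to 171), in the library labelled Prdm16 cKO and 9110 UMIs, or 158 CPM (155 to 162), in the flox control library. The log2 ratio of 0.07 (0.03 to 0.12) left out 0, but it was close to the median of all genes, 0.04, and the ratio was below 0 within clusters 1 (-0.017), 4 (-0.062) and 8 (-0.011). The interval of none of the 5 adipocyte-like clusters left out 0.

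No class lacked Atp2a2, and among the 9 compared classes its level ran between 137 and 214 CPM in the library labelled Prdm16 cKO and between 127 and 209 CPM in the flox control library. Progenitor or fibroblast-like nuclei led these 9, with 214 CPM (202 to 226) and 209 CPM (199 to 220). Macrophage-like nuclei came next, with 171 CPM (156 to 188) and 174 CPM (162 to 185), below the progenitor or fibroblast-like intervals in both libraries. B cell-like, dendritic-like and adipocyte-like nuclei did not differ from their neighbours in that order beyond counting error in either library. The fibroblast-like clusters differed from one another: cluster 16, led by Nkain3 and Itgbl1, had 344 and 323 CPM, cluster 5 had 218 and 215 CPM, and cluster 11 had 141 and 148 CPM. The 2 libraries gave the same order of the 3 clusters, and both values of cluster 16 were above those of every compared class.

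Smooth muscle-like nuclei had 292 CPM of Atp2a2 (215 to 387; 48 UMIs) in the library labelled Prdm16 cKO and 493 CPM (433 to 559; 243 UMIs) in the flox control library, the highest of all classes, with an interval that overlapped the next class in the library labelled Prdm16 cKO only. With each nucleus thinned to 1000 UMIs, 44.1% and 46.0% of smooth muscle-like nuclei had an Atp2a2 UMI, against 16.0% and 14.2% of adipocyte-like nuclei and 15.7% and 12.3% of B cell-like nuclei. Before thinning, the shares were 61.8% and 75.0% of smooth muscle-like nuclei, 78.7% and 75.3% of adipocyte-like nuclei and 52.5% and 44.4% of B cell-like nuclei. Thinning left out 0 and 1 smooth muscle-like, 9 and 2 adipocyte-like and 3 and 1 B cell-like nuclei. In vascular endothelial-like cluster 13, Atp2a2 had 151 and 112 CPM, a log2 ratio of 0.43 (0.10 to 0.76), whereas the whole endothelial class had an interval that held 0.

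Ryr2 (ENSMUSG00000021313, chr13:11553102-12106945, minus strand) encodes the ryanodine receptor of the heart, a channel that releases calcium from the endoplasmic reticulum and completes the calcium cycle. In adipocyte-like nuclei it was low, with 74 UMIs, or 1.91 CPM, in the library labelled Prdm16 cKO and 103 UMIs, or 1.79 CPM, in the flox control library. The log2 ratio was 0.09 (-0.36 to 0.54). Relative to all other nuclei Ryr2 was lower in adipocyte-like nuclei by a log2 ratio of -2.92 (-3.31 to -2.56) and -3.92 (-4.23 to -3.63). Those other nuclei held 341 and 954 Ryr2 UMIs. Smooth muscle-like nuclei brought 120 and 653 of them, and macrophage-like cluster 27 brought 90 and 68, so both ratios lean on these small groups. A Ryr2 UMI was seen in 2.46% and 2.25% of adipocyte-like nuclei, against 9.39% and 5.79% of the shallower B cell-like and 5.17% and 1.30% of the shallower T cell-like nuclei.

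Smooth muscle-like nuclei had the highest Ryr2 level in both libraries, beyond counting error, with 120 UMIs, or 730 CPM (605 to 873), in the library labelled Prdm16 cKO and 653 UMIs, or 1324 CPM (1224 to 1429), in the flox control library. A Ryr2 UMI was present in 23 of 34 and 54 of 64 of these nuclei, at median depths of 3259 and 6003 UMIs. Thinned to 1000 UMIs, the shares were 38.2% (22.2 to 56.4%) and 60.3% (47.2 to 72.4%), whose intervals overlap. The summed adipocyte markers reached 37.6% of the adipocyte-like sum in the cKO-labelled and 18.0% in the control smooth muscle-like nuclei, and their part in the lower CPM was not tested. With 34 and 64 nuclei the class was below the minimum for a comparison.

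Ryr2 in macrophage-like nuclei came mostly from the small cluster 27, led by Prg4 and Padi4. Its 26 cKO-labelled nuclei had 90 UMIs, or 474 CPM (382 to 583), and its 25 control nuclei had 68 UMIs, or 335 CPM (260 to 424), in 14 and 10 nuclei. The log2 ratio in that cluster was 0.50 (0.03 to 0.98). The large macrophage-like cluster 2, with 533 and 969 nuclei, had 2 and 25 UMIs, or 0.789 and 5.22 CPM, a log2 ratio of -2.73 (-5.85 to -0.72). The pooled class, at 33.8 and 18.6 CPM with a log2 ratio of 0.86 (0.43 to 1.29), had the direction of cluster 27, which held 26 of the 559 cKO-labelled and 25 of the 994 control macrophage-like nuclei. B cell-like nuclei had 27.3 CPM (35 UMIs in 17 nuclei) and 23.9 CPM (34 UMIs in 18 nuclei), with an interval that held 0.

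**Figure D4:**
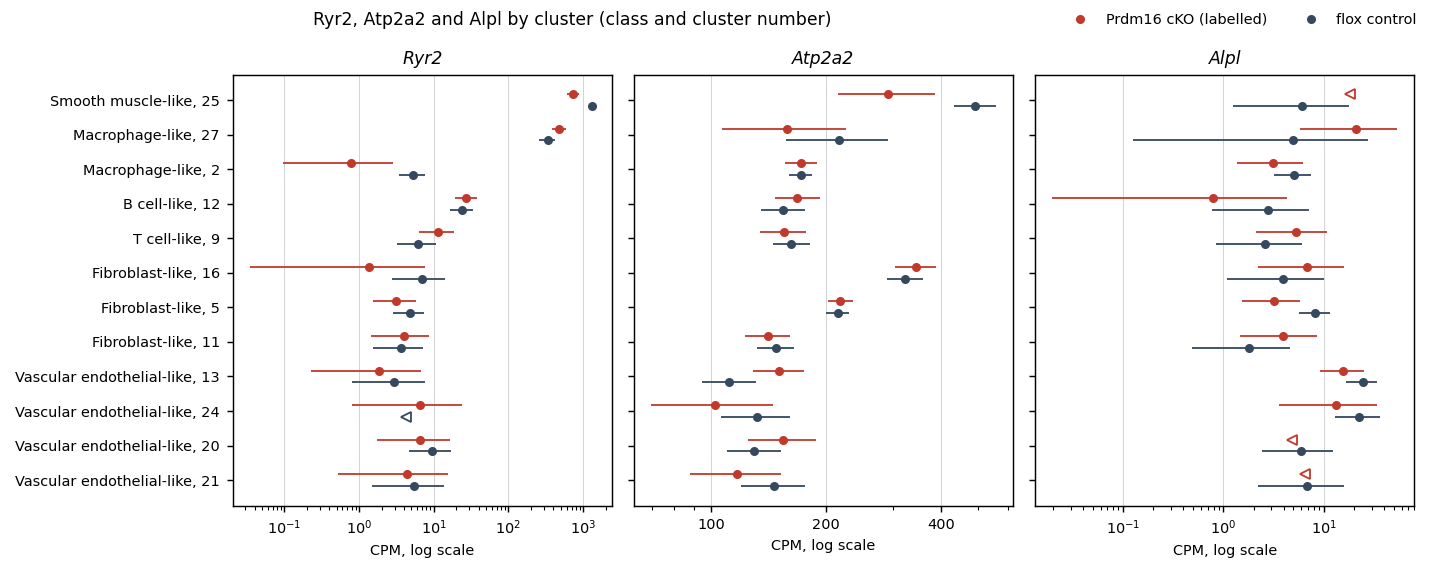
CPM (log scale) of Ryr2, Atp2a2 and Alpl in single clusters of smooth muscle-like, macrophage-like, lymphocyte-like, fibroblast-like and vascular endothelial-like nuclei, the library labelled Prdm16 cKO in red above the flox control library in dark blue, with 95% counting intervals and open triangles at the level of 3 UMIs where none was counted. Ryr2 is high in clusters 25 and 27 of both libraries, Atp2a2 is highest in clusters 25 and 16, and Alpl is highest in endothelial clusters 13 and 24 of the flox control library.

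Pm20d1 (ENSMUSG00000042251, chr1:131797381-131821473, plus strand) encodes the secreted enzyme that joins fatty acids to amino acids and splits the products again. Adipocyte-like nuclei had 161 UMIs, or 4.16 CPM (3.54 to 4.85), in the library labelled Prdm16 cKO and 179 UMIs, or 3.11 CPM (2.67 to 3.60), in the flox control library. The log2 ratio was 0.42 (0.10 to 0.73), below 1.5-fold, and was above 0 in all 5 clusters, between 0.0062 in cluster 6 and 0.70 in cluster 8, although no single cluster had an interval that left out 0. In clusters 6 and 4, where Pm20d1 had 53 and 20 UMIs and 7 and 36 UMIs, the log2 ratio was 0.0062 and 0.078. Cluster 6, with 4.70 and 4.68 CPM, had the highest value of the 5 in both libraries, with intervals that overlapped those of the other clusters. It made up 29.2% of the cKO-labelled and 7.24% of the control adipocyte-like nuclei. The part of these shares in the pooled Pm20d1 ratio was not tested.

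Pm20d1 was the only one of the 8 genes with a higher level in adipocyte-like nuclei than in all other nuclei of both libraries. The log2 ratio was 0.48 (0.07 to 0.91) in the library labelled Prdm16 cKO and 0.75 (0.34 to 1.18) in the flox control library, and adipocyte-like nuclei held 69.7% and 73.4% of its UMIs. A UMI was seen in 4.48% and 3.45% of adipocyte-like nuclei, against 1.10% and 1.29% of B cell-like and 0.431% and 0.781% of T cell-like nuclei, which are shallower. Thinned to 1000 UMIs, the shares were 0.412% and 0.322% of adipocyte-like, 1.12% and 0.645% of B cell-like and 0% and 0.26% of T cell-like nuclei. The thinned B cell-like shares rested on 2 UMIs each and the T cell-like shares on 0 and 1. All thinned intervals overlapped within each library, so at equal depth these shares did not set adipocyte-like nuclei apart. By level per class, however, adipocyte-like nuclei stood in place 6 in the library labelled Prdm16 cKO and in place 3 in the flox control library. Above them in both libraries were intestinal epithelial-like nuclei, with 15.8 CPM (4 UMIs) and 25.6 CPM (29 UMIs), and acinar-like nuclei, with 6.58 CPM (9 UMIs) and 7.37 CPM (5 UMIs). Of these, only the control intestinal epithelial-like interval (17.1 to 36.8 CPM) lay wholly above that of adipocyte-like nuclei. Schwann-like nuclei (8.75 CPM, 1 UMI), vascular endothelial-like nuclei (5.28 CPM) and the unnamed cluster 3 (4.46 CPM) were above them in the library labelled Prdm16 cKO alone, with intervals that overlapped theirs. Macrophage-like nuclei had 10 and 4 UMIs, a log2 ratio of 2.20 (0.40 to 4.32). Vascular endothelial-like nuclei had 13 and 4 UMIs, a log2 ratio of 2.39 (0.69 to 4.46). The summed adipocyte markers reached 26.8% and 22.2% of the adipocyte level in the first class and 43.3% and 28.6% in the second. Their part in the Pm20d1 ratios was not tested. In the library labelled Prdm16 cKO, Pm20d1 had 3.67 CPM in macrophage-like, 5.28 CPM in vascular endothelial-like and 4.16 CPM in adipocyte-like nuclei.

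The other genes of the 3 pathways were taken from lists chosen with earlier results of these data known. Of 14 creatine genes, 12 had at least 20 UMIs in adipocyte-like nuclei, 2 of them were at least 1.5-fold higher and none lower, 7 lay above 0 and 5 below, and the median was 0.18. Of all genes with at least 20 UMIs, 7.48% were at least 1.5-fold higher, 5.13% at least 1.5-fold lower, and 55.8% lay above 0. Besides Gatm, the gene past 1.5-fold was Ckmt2, a mitochondrial creatine kinase, with 21 and 17 UMIs and an interval that held 0 (0.88, -0.12 to 1.89), named here after its values were seen. The ADP/ATP carriers Slc25a5 (0.48, 0.21 to 0.75) and Slc25a4 (0.30, 0.12 to 0.49) and the nuclear receptor Esrra (0.36, 0.29 to 0.43) were higher. Adra1a, the alpha-1A adrenergic receptor that acts through Gq, was lower, at 37.6 and 47.0 CPM (-0.32, -0.41 to -0.23), and Gnaq, the Gq alpha subunit, had 723 and 698 CPM (0.05, 0.03 to 0.07).

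Of 29 calcium genes, 25 had at least 20 UMIs, and 1 was at least 1.5-fold higher and 1 lower, beside 7.48% and 5.13% of all genes. Of the 25, 13 lay above 0 and 12 below, and the median was 0.0027. The kinase subunit gene Camk2b was higher, with 48 and 30 UMIs, a 2.38-fold difference (log2 interval 0.56 to 1.96), as was the inositol trisphosphate receptor gene Itpr3 (0.57, 0.17 to 0.97). The calsequestrin gene Casq1, for a calcium-binding protein of the reticulum, was lower with 6 and 24 UMIs (-1.43, -3.01 to -0.10). The sodium/calcium exchanger gene Slc8a1 (-0.27), the second inositol trisphosphate receptor gene Itpr2 (-0.26) and the calcium sensor gene Stim1 (-0.19) were lower by smaller amounts, with intervals that left out 0. Of the 5 genes of the N-acyl amino acid list, 4 had at least 20 UMIs, none was past 1.5-fold, and the median was 0.0023. The list's uncoupling protein gene Ucp1, which gives brown fat its heat, had 0 UMIs in the 2921 cKO-labelled (up to 0.0774 CPM) and 1 UMI in the 4348 control adipocyte-like nuclei.

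**Figure D5:**
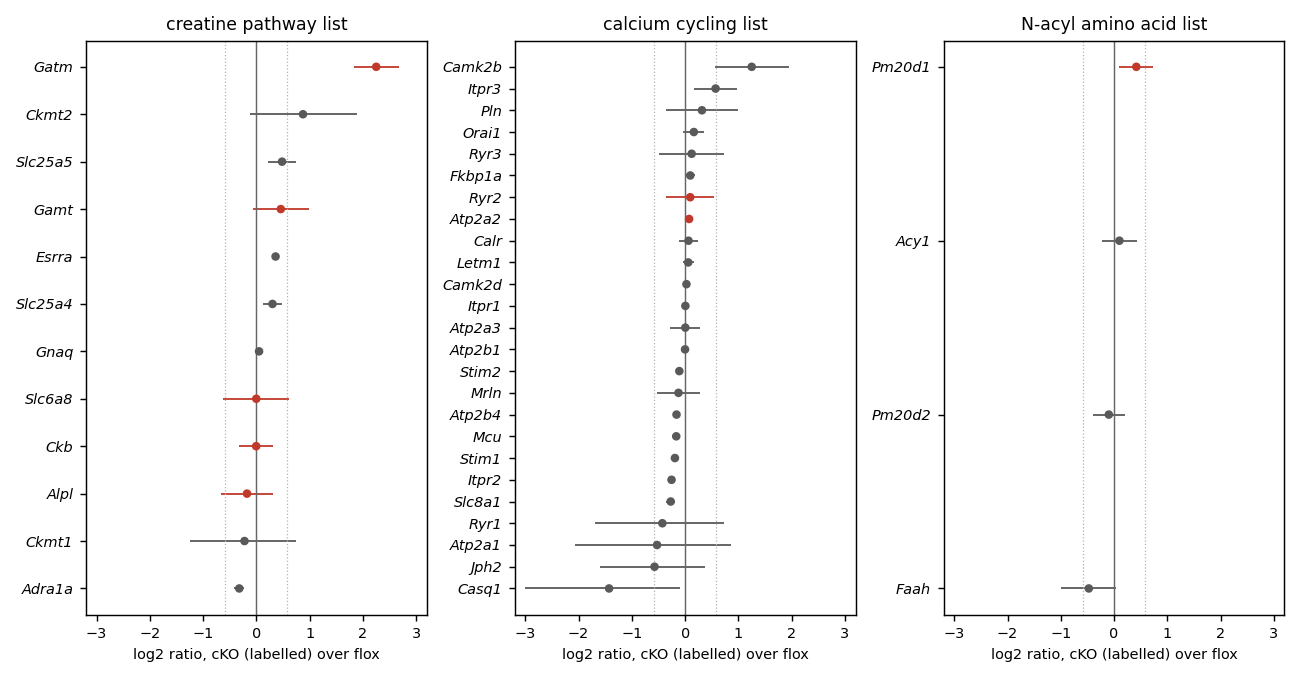
Log2 ratio in adipocyte-like nuclei, the library labelled Prdm16 cKO over the flox control library, with 95% counting intervals, for the genes of the creatine, calcium and N-acyl amino acid lists with at least 20 UMIs. The 8 genes described here are in red, dotted lines mark 1.5-fold, and past them lie Gatm, Ckmt2 and Camk2b above and Casq1 below.

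The genes whose levels went most like each of the 8 were sought over 25 points, each a named class with at least 50 nuclei in 1 library, by the Pearson correlation of log2(CPM + 1) among 14614 genes. The points share the 2 libraries and differ in depth, so the values describe these classes only. Gatm went with the pancreatic protease genes Ctrb1 (0.88) and Ctrl (0.87) and with 2210010C04Rik (0.88). Ryr2 went with Dpp10 (0.82), the smooth muscle actin gene Actg2 (0.82) and Uba2 (0.81), and Atp2a2 with the potassium channel gene Kcnma1 (0.88), Psme4 (0.82) and Mapre2 (0.78). For Gamt the likest gene was Gfra1 (0.84), for Ckb Abracl (0.79), for Slc6a8 Prkg2 (0.76), for Alpl Gm36431 (0.76) and for Pm20d1 Gtf2h1 (0.80), each over few UMIs per point.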

How the data were processed

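The deposited matrices hold whole-number UMI counts per gene and nucleus, not normalised, made by the authors with Cell Ranger 6.1.2 per the submitters' processing notes, on the mm10 build. How barcodes were filtered, which annotation release was used and whether introns were counted: not given in the sources used here. The genes and lists were chosen with earlier results of these data known. Positions come from GENCODE M21 on GRCm38. Atp2a2 and Ryr2 each overlap 3 annotated genes, none of them in the matrices. The acinar markers Prss2 and Try4 have near-identical paralogs and are uncertain.

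Nuclei were kept with at least 500 UMIs, 300 genes and under 5% mitochondrial UMIs, which removed 217 and 449 of 8086 and 12060 barcodes. Scrublet's automatic threshold marked 0 and 1 nuclei, under 0.5%, so the 495 and 1079 highest scores were removed (0.8% per 1000 nuclei). Clustering used 2000 variable genes, 30 principal components, 20 neighbours and the Leiden algorithm at resolution 1 (scanpy 1.11.5, leidenalg 0.10.2). A name needed 3 markers detected in 5% of nuclei at 2 times the other clusters. A cluster filled mostly by 1 library may reflect the library rather than a cell type.

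Counts were summed per class and library. Levels carry exact Poisson intervals, ratios exact conditional binomial intervals and shares Clopper-Pearson intervals, all at 95%. With 1 library per genotype no test across libraries was possible. The ratio script was tested on simulated data. Named genes were the 8 genes, up to 6 others per list with at least 20 UMIs and an interval without 0 (largest ratio first), the 3 likest genes of each, the 3 most abundant acinar markers, and Prdm16. Alternatives were TMM (edgeR 4.0.16) and median-of-ratios scaling, which moved all log2 ratios by -0.03 and -0.04, mean CPM per nucleus, thinning to 1000 UMIs, doublets kept, at least 2000 UMIs, subtraction of free RNA, single clusters, and other folds and markers. The subtraction of 2 sources, the acinar subtraction outside adipocyte-like nuclei, single macrophage markers and single clusters of other classes were added after seeing the data.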

Additional observations from a re-analysis of the deposited data

Results flagged for a closer look

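Ryr2 went in opposite directions in the clusters of macrophage-like nuclei, each with an interval that left out 0: its log2 ratio, the library labelled Prdm16 cKO over the flox control library, was -2.73 in cluster 2 and 0.50 in cluster 27. The difference between the clusters was not tested. The value of cluster 2 rests on 2 and 25 UMIs, the 25 from 20 nuclei, and that of cluster 27 on 90 and 68 UMIs from 14 and 10 nuclei.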

How the results depend on the processing

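No paired analysis was possible because each genotype had 1 library. Log2 ratios below are of the library labelled Prdm16 cKO over the flox control library, and the cause of each shift was not tested. Of the recomputed adipocyte-like ratios, counts of genes and Gatm to marker ratios, 113 stayed within the counting interval of the reported value or near its count, 33 moved and 4 turned. In adipocyte-like nuclei, Gatm was -0.014 with the acinar profile subtracted, 2.73 in nuclei with no acinar marker UMI, a division that does not separate the sources of Gatm, and 1.15 in cluster 8. Gamt was 3.16 after thinning, from 6 and 1 UMIs, -0.26 in cluster 0, 1.04 in cluster 1 and 1.87 in cluster 8. Ckb was 1.41 and Alpl 0.37 in cluster 6. Slc6a8 was 0.67 in cluster 1, -1.59 in cluster 6 and -0.67 in nuclei with no acinar marker UMI, where Alpl was -1.55 and Ryr2 -0.67. Atp2a2 was 0.22 after thinning, -0.017 in cluster 1, -0.062 in cluster 4 and -0.011 in cluster 8. Ryr2 was 1.19 in cluster 4 and -1.30 in cluster 8. Pm20d1 was 0.078 in cluster 4 and 0.0062 in cluster 6. With the acinar profile subtracted, Gatm was -0.049 in dendritic-like, -0.86 in mesothelial-like, -1.34 in progenitor or fibroblast-like and -3.26 in vascular endothelial-like nuclei. These are ratios of small remainders with no interval, and only 6.64 progenitor or fibroblast-like and 0.682 vascular endothelial-like UMIs were left in the library labelled Prdm16 cKO. Ryr2 was -2.73 in macrophage-like cluster 2 alone. At a log2 ratio of 0.32 or more in size, 3 of the 8 genes, 5 creatine, 2 calcium and 1 N-acyl gene were higher, and 4 calcium and 1 N-acyl gene lower. Of all genes, 18.9% were higher and 11.7% lower at that size. At 2-fold, 1 creatine and 1 calcium gene were higher and 1 calcium gene lower, beside 2.3% and 1.67% of all genes. With a single acinar marker, adipocyte-like over acinar-like Gatm per marker UMI in the library labelled Prdm16 cKO was -0.14 (Cpa1), -0.026 (Prss2), -0.65 (Ctrb1), -0.13 (Cel), 1.30 (Cela2a), -0.10 (Pnlip) and -0.48 (Try4), and 3.47 with Cela2a in the flox control library. The subtraction of 2 sources, with Mertk among the macrophage markers, left fewer than 0 Gatm UMIs in the cKO-labelled library, so no ratio could be had. Depth limits every gene but Atp2a2 and, in adipocyte-like nuclei, most single clusters, where counts fell to 3 UMIs.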
